A study of Homo sapiens with 12 samples.

Results

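Kinesins are the motor proteins that walk along microtubules, and their 39 genes on the array were followed through knockdown and overexpression of estrogen receptor β2 (ERβ2) in BT549 cells. A gene was counted as a kinesin when a probe set of the array (a transcript cluster) carried 1 gene symbol and that symbol began with KIF or KIFC followed by a number. Of 17958 genes with 1 symbol, 39 met this rule. KIF18B, KIF19, KIF22, KIF5A and KIFC1 had more than 1 cluster, and of these the brightest on average was used. KIF20A, KIF4B and KIFC2 share their cluster with a second symbol and were therefore left out, together with 2 further clusters of KIF27. By their best known role, 13 members were placed among the mitotic kinesins, 14 among the transport kinesins and 6 among the ciliary kinesins, and the other 6 have no single role of this kind.

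All 12 arrays came from BT549, a line of triple-negative breast cancer, so there is 1 line behind every value. ERβ2 is a splice form of ERβ, the product of ESR2. The 4 groups of 3 arrays were control siRNA and siRNA against ERβ2, both with RNA taken at 48 h, and the empty plasmid (pcDNA3-EV) and the plasmid carrying flag-tagged ERβ2 cDNA (pcDNA3-flag-ERβ2), both with RNA taken at 24 h. Each group was transfected, none was left untreated, and the cells had no other stated treatment. The siRNA groups and the plasmid groups differ in nucleic acid, transfection reagent, cell confluency at transfection and time, all together. The siRNA set that went into the array experiment is not named in the sources used here. The arrays were of the type Affymetrix Human Gene 1.1 ST, and the values are RMA values on the log2 scale, on which a difference of 1 stands for a 2-fold change.

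Kinesins turn the energy of ATP into steps along microtubules. During mitosis some members push spindle poles apart, move chromosomes, shorten microtubule ends or build the midzone where the cell divides, and proliferating cancer cells make their mRNAs mainly in G2 and M phase. Other members carry vesicles, mitochondria and protein complexes through the cell in all phases, and others work in cilia. In the promoters of many genes of G2 and M phase, a CCAAT box, bound by NF-Y, lies upstream of a short element called CHR, most often spelled TTTGAA, which is bound by the DREAM and MuvB complexes.

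Because the mitotic kinesins moved together on the arrays, their promoters are shown first. RefSeq promoter windows of assembly GRCh38.p14 ran from 250 bases before to 50 bases after the start of the gene. They were matched by gene identifier for 32 of the 39 members, with the first window taken where a gene had several. The letters TTTGAA, read on both strands, occurred in 9 of the 13 mitotic kinesins (69.2%), in 1 of the 19 other kinesins with a window (5.26%, KIF5B) and in 15.4% of 27305 genes. CCAAT occurred in 9 of 13 mitotic kinesins (69.2%), in 6 of the 19 others (31.6%) and in 35.7% of all genes. The rarer spelling TTCGAA was found in 1 of 13 mitotic kinesins, KIF22, against 1.45% of all genes. Of the 19 others, KIF24 alone held it (5.26%). TTCCCGC, a form of the E2F site, was found in 0 of 13 and in 3 of the 19 others (15.8%), against 6.56% of all genes. Of the 10 mitotic kinesins that fell with ERβ2 siRNA, 8 held TTTGAA, and KIF2C and KIF22 did not. KIF11, which did not pass the test, held TTTGAA and CCAAT as well, and KIF2A and KIF2B had no TTTGAA. A match gives the letters alone and was not measured as a bound site.

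Printed here are the promoters of the 3 mitotic kinesins with the largest change with ERβ2 siRNA and that of KIF3B, the kinesin with the largest change of all, which was added after its values were seen. Each line runs 5′ to 3′ on the strand of the gene, from 250 bases before to 10 bases after the start, and capitals mark CCAAT and TTTGAA on either strand (ATTGG is CCAAT on the other strand). The matches in these lines do not overlap each other. KIF4A lies at chrX:70289854-70290113 on the + strand, KIF23 at chr15:69414099-69414358 on the + strand, KIF18B at chr17:44947764-44948023 on the − strand and KIF3B at chr20:32277401-32277660 on the + strand.
KIF4A: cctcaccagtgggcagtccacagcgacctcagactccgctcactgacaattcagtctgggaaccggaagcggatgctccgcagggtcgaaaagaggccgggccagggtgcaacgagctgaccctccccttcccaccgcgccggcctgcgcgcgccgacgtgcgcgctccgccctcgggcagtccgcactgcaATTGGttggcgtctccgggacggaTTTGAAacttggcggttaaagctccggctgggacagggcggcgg
KIF23: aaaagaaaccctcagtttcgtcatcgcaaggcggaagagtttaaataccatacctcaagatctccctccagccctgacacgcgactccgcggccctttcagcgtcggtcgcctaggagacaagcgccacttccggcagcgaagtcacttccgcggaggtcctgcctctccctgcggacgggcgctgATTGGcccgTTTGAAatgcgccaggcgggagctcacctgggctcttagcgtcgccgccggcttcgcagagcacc
KIF18B: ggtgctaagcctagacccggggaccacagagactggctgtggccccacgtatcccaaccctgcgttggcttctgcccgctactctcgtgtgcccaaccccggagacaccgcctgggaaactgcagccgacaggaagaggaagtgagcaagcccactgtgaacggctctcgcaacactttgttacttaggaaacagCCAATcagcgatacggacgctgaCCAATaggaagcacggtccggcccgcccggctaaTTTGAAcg
KIF3B: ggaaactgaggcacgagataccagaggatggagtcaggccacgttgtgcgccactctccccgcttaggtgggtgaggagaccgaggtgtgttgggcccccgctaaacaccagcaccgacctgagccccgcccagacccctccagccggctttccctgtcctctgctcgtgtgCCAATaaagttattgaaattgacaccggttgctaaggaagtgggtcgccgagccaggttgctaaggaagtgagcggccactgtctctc
In KIF4A the CCAAT box began 58 bases and TTTGAA 34 bases before the start. In KIF23 the same pair began 64 and 55 bases before it. KIF18B had CCAAT at 55 and at 32 bases before the start, and its TTTGAA began at base 3 of the transcript. KIF3B held CCAAT at 78 bases before the start and no TTTGAA.

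The arrays were alike in scale, and most of the cell type markers matched the label. Array medians lay between 5.04 and 5.14, and the mean correlation of an array with the others of its group ran from 0.9933 to 0.9969, with empty vector replicate 2 the lowest. The mesenchymal genes VIM (mean 12.16, above 99.6% of gene signals), FN1, ZEB1 and CDH2 were bright, while ESR1, PGR, CDH1 and EPCAM and the blood and vessel markers PTPRC, CD3E and PECAM1 had means under 4. ERBB2 stood above 68.2% of gene signals and KRT19, an epithelial keratin, above 39.9%. ESR2, whose cluster was matched by gene and not by splice form, was dim, with a mean of 4.11, above 23.2% of gene signals. It changed by −0.02 with the siRNA (adjusted p = 0.913 from limma), so the cluster gives no check of the siRNA labels. With the plasmid it changed by 0.47 (limma: unadjusted p = 0.00167, adjusted p = 0.449). The plasmid arrays read 4.35, 4.72 and 4.37, each above the empty vector arrays at 4.08, 3.93 and 4.01. Of the kinesins, 8 had a mean under 5, close to the array median. The 3 arrays of each group are labelled as replicates of 1 cell line, so the p-values measure the spread between these cultures.

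Most of the mitotic kinesins fell when ERβ2 was targeted with siRNA, and none rose. In this comparison a gene was said to fall or rise when limma gave an adjusted p of at most 0.1 over all 17958 genes. By this rule 10 of 13 mitotic kinesins were lower and 0 were higher, against a background of 17.5% of all genes lower and 18.3% higher. The median change of the 13 was −0.50, against −0.03 over all genes. Of the 13, 3 were also past 1.5-fold, where the background was 1.26% of all genes. In bulk RNA, fewer cells in mitosis and less of each mRNA per cell cannot be told apart.

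KIF4A, a chromokinesin that sits on chromosome arms and on the central spindle, fell the most of them. It read 9.92, 9.83 and 9.81 on the log2 scale with control siRNA and 9.29, 9.10 and 9.18 with ERβ2 siRNA, so the groups lie apart by far more than their own spread. The change was −0.66 (limma: adjusted p = 0.000203, standard error 0.07), which is 1.58-fold lower.

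KIF23, the motor subunit of centralspindlin, which bundles the midzone and is needed for cytokinesis, followed closely. It read 10.04, 9.98 and 10.02 with control siRNA and 9.43, 9.36 and 9.34 with ERβ2 siRNA. Each array with ERβ2 siRNA lay below every control array, and the change was −0.64 (limma: adjusted p = 9.08e-05, standard error 0.05).

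The kinesin-8 motors KIF18A and KIF18B, which limit the length of spindle microtubules, both fell. KIF18B read 8.85, 8.81 and 8.81 with control siRNA and 8.34, 8.15 and 8.18 with ERβ2 siRNA, a change of −0.60 (limma: adjusted p = 0.000293, standard error 0.07). At 1.52-fold it lay just past the 1.5-fold mark, and its second cluster gave −0.68. KIF18A, which aligns chromosomes at the metaphase plate, read 8.99, 9.09 and 9.01 with control siRNA and 8.47, 8.39 and 8.52 with ERβ2 siRNA, a change of −0.57 (standard error 0.06) with no overlap, and it fell just short of that mark.

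KIF20B, a motor of late cytokinesis, and KIFC1, a minus-end motor that gathers extra centrosomes into 2 poles, changed by about as much. KIF20B read 9.03, 9.06 and 8.95 against 8.48, 8.45 and 8.51, a change of −0.53 (standard error 0.06). KIFC1 read 9.68, 9.75 and 9.75 against 9.22, 9.28 and 9.15, a change of −0.51 (standard error 0.06), and −0.47 on its second cluster. In neither gene did an ERβ2 siRNA array reach the lowest control array.

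The remaining mitotic kinesins that fell were the microtubule depolymerase KIF2C at −0.50, KIF15 at −0.48, which helps to keep the spindle bipolar, KIF14 at −0.39, which works in cytokinesis, and the chromokinesin KIF22 at −0.36. The other 3 members did not pass. KIF11, the motor that drives spindle poles apart, read 10.15, 10.11 and 10.11 with control siRNA and 10.03, 9.98 and 10.05 with ERβ2 siRNA, so the arrays did not overlap, but the change of −0.10 did not pass (adjusted p = 0.184 from limma; 0.0695 with an intensity trend and a robust prior). KIF2A, a depolymerase of spindle poles that is also made outside mitosis, had a change of 0.08 (adjusted p = 0.32), and the dim KIF2B one of −0.06 (adjusted p = 0.696).

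**Figure D1:**
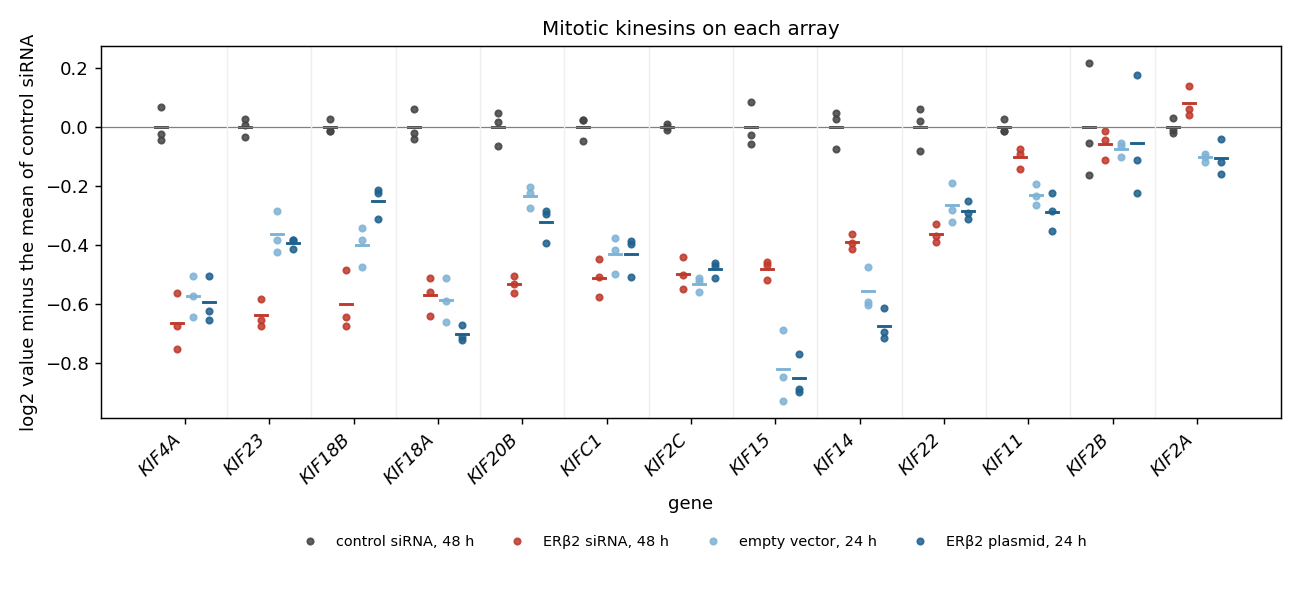
Log2 value of the 13 mitotic kinesins on each of the 12 arrays, minus the mean of the 3 control siRNA arrays (y axis), with genes on the x axis ordered by their change with ERβ2 siRNA. Points are arrays and short bars are group means; the control siRNA mean is the highest of the 4 groups in 12 of the 13 genes, KIF2A being the other.

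Most genes for proteins that work with the mitotic kinesins fell as well. This list of 20 holds loaders, regulators and binding partners, and 18 of 20 were lower, 0 were higher and 2 (CLASP1 and NUMA1) did not pass, where 17.5% of all genes were lower and 18.3% higher. The median change of the list was −0.36, against −0.03 over all genes. PSRC1, which brings a depolymerase to the spindle, changed by −0.87 (standard error 0.08), GTSE1, which restrains KIF2C, by −0.58 (standard error 0.07), CDCA8, a subunit of the chromosomal passenger complex, by −0.52 (standard error 0.06) and CIT, the citron kinase that binds KIF14, by −0.51 (standard error 0.06). RACGAP1, the partner of KIF23 in centralspindlin, changed by −0.44, and PRC1, which recruits KIF4A to the midzone, by −0.38. CENPE, a kinesin of the kinetochore whose symbol the rule does not take in, read 9.42, 9.41 and 9.39 with control siRNA and 8.90, 8.93 and 8.94 with ERβ2 siRNA, a change of −0.48 (adjusted p = 0.000255 from limma).

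The transport kinesins went both ways. Of 14, 3 were lower, 4 were higher and 7 did not pass, with a median change of 0.11, and these shares are near the background of 17.5% lower and 18.3% higher. KIF3B and KIF3A, subunits of kinesin-2, held the largest changes in each direction. In its form with unlike motor subunits, kinesin-2 is built of KIF3A with either KIF3B or KIF3C. With KIF3B, KIF3A joins KIFAP3 and carries cargo toward the tip of the cilium and through the cytoplasm.

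KIF3B had the largest change of all 39 kinesins. It read 8.82, 8.67 and 8.69 with control siRNA and 7.81, 7.62 and 7.63 with ERβ2 siRNA, so the gap between the groups was several times the range within either. The change was −1.04 (limma: adjusted p = 3.67e-05, standard error 0.07, with a 95% confidence interval of −1.21 to −0.87), which is 2.06-fold lower, and it was the only transport kinesin past 1.5-fold.

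KIF3A moved the other way. It read 6.80, 6.59 and 6.48 with control siRNA and 7.18, 6.94 and 7.20 with ERβ2 siRNA, without overlap, and the change was 0.48 (limma: adjusted p = 0.00781, standard error 0.10). KIF3C read 7.71, 7.44 and 7.34 against 7.24, 7.05 and 7.20, with the highest ERβ2 siRNA array just under the lowest control array. Its change of −0.33 (limma: adjusted p = 0.0375, standard error 0.10) no longer passed without ERβ2 siRNA replicate 2 (adjusted p = 0.105). KIFAP3, the non-motor subunit, read 8.92, 8.88 and 8.78 against 9.01, 8.88 and 8.93, and its change of 0.08 did not pass (adjusted p = 0.385).

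**Figure D2:**
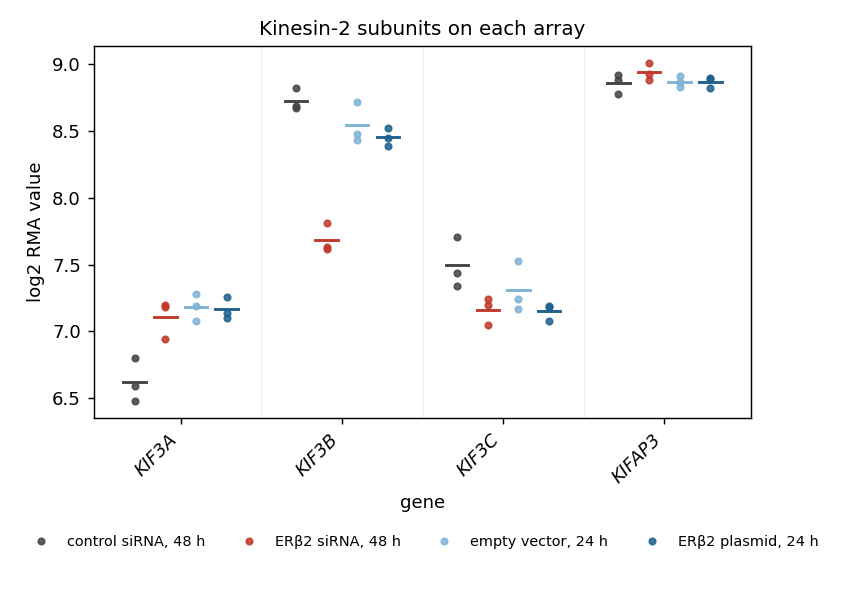
Log2 RMA value (y axis) of the kinesin-2 motors KIF3A, KIF3B and KIF3C and the accessory subunit KIFAP3 (x axis) on each of the 12 arrays; points are arrays and bars are group means. KIF3B was low in the 3 ERβ2 siRNA arrays alone (7.62 to 7.81), while KIF3A was lowest in the 3 control siRNA arrays (6.48 to 6.80).

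KIFC3, a minus-end motor of cell junctions and the Golgi, rose. It read 7.24, 6.97 and 7.10 with control siRNA and 7.52, 7.33 and 7.35 with ERβ2 siRNA, a change of 0.30 (limma: adjusted p = 0.0312, standard error 0.08). The other calls were small. KIF1C, a carrier of vesicles and mRNAs, rose by 0.23, KIF13B fell by 0.26, and KIF16B, a motor of early endosomes, rose by 0.18. The KIF16B call was lost when any 1 of the 3 control arrays or ERβ2 siRNA replicate 3 was left out (adjusted p up to 0.20). It was also lost with quantile normalization run again (limma: adjusted p = 0.137), with all clusters in the fit (0.112) and in 1 fit for all 4 groups (0.267). Under the other normalizations it held. Of the kinesin-1 heavy chains, which carry mitochondria and vesicles, KIF5B had a change of 0.06, KIF5A of 0.15 and KIF5C of 0.18, and none of these passed (adjusted p from 0.101 to 0.455 from limma).

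**Figure D3:**
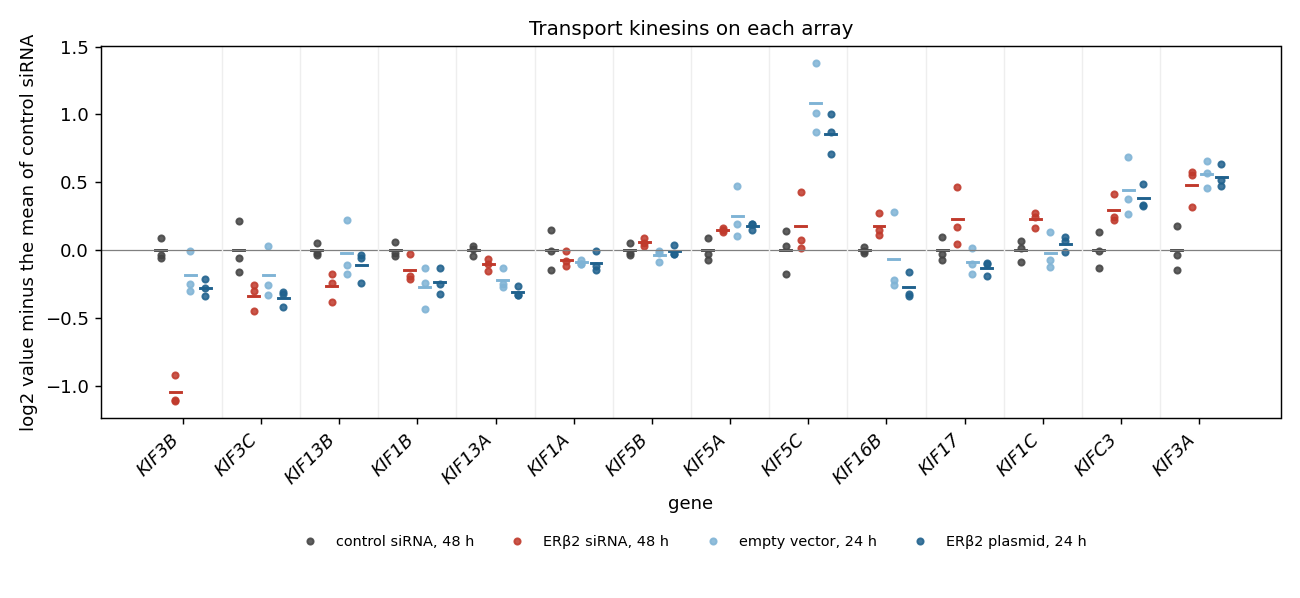
Log2 value of the 14 transport kinesins on each of the 12 arrays, minus the mean of the 3 control siRNA arrays (y axis), with genes on the x axis. Points are arrays and bars are group means; KIF3B stands apart in the ERβ2 siRNA arrays, KIF5C in both plasmid groups, and KIF3A is lowest with control siRNA.

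Few of the adaptors and light chains that tie transport kinesins to their cargo passed. Of 22 listed genes 20 were measured, and 3 were lower, 3 were higher and 14 did not pass, with a median change of 0.08. These shares are near the background of 17.5% of all genes lower and 18.3% higher. STARD9 is a very large kinesin of the centrosome that was listed here because its symbol is not a KIF. It read 6.05, 6.23 and 6.29 with control siRNA and 7.07, 6.85 and 7.04 with ERβ2 siRNA. The rise was 0.80 on its brightest cluster (limma: adjusted p = 0.000265, standard error 0.09). With the mean of its clusters the rise was smaller, at 0.58. STARD9 was also higher with the empty vector than with control siRNA (0.56, adjusted p = 0.0127 from limma). KLC2, a light chain of kinesin-1, changed by −0.31 (adjusted p = 0.0118). RHOT1, which links kinesin-1 to mitochondria, changed by 0.23 (adjusted p = 0.0469) and lost its call without any of control siRNA replicates 2 and 3 and ERβ2 siRNA replicate 1 (adjusted p of 0.124 to 0.14). HAP1, an adaptor of kinesin-1 with a mean of only 4.17, changed by −0.21 (adjusted p = 0.0587 from limma). It lost its call without any of control siRNA replicates 1 and 3 and ERβ2 siRNA replicate 1 (adjusted p of 0.137 to 0.169). The call was also lost under each of the other normalizations (adjusted p of 0.138 to 0.16). RHOT1 and HAP1 lost their calls as well with all clusters in the fit (limma: adjusted p = 0.104 and 0.12). The same held by the methods' t-test (adjusted p = 0.128 and 0.135).

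Among the 6 kinesins listed as ciliary, KIF24 alone passed, a share near the background of 17.5% of all genes lower and 18.3% higher. KIF3A and KIF3B, which also work in cilia, were listed with the transport kinesins. KIF24 is a depolymerase of the centriole that holds back the growth of cilia. It read 7.39, 7.22 and 7.34 with control siRNA and 6.83, 6.72 and 6.83 with ERβ2 siRNA, without overlap, and the change was −0.52 (limma: adjusted p = 0.000653, standard error 0.07). KIF27, at −0.42, had a standard error of 0.20 and did not pass (adjusted p = 0.157). KIF7, a regulator of Hedgehog signalling at the tip of the cilium, had a change of −0.12 (adjusted p = 0.16). None of the 6 members without a fixed role passed, and their changes ran from −0.20 (KIF12) to 0.14 (KIF26B).

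Over all 39 kinesins, 14 were lower, 4 were higher and 21 did not pass with ERβ2 siRNA. All 18 calls were among the 31 members with a mean of at least 5. In genes of that brightness the background was 19.5% lower and 27.3% higher.

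No kinesin passed the test with the ERβ2 plasmid. The background was 0.0111%, or 2 of 17958 genes. The 39 changes ran from −0.23 to 0.15, and the median of the mitotic members was −0.02. At an unadjusted p under 0.05 there were 2 of 39 by limma, where 1260 of 17958 genes met that mark, and 1 of 39 by the methods' t-test. The 95% confidence intervals of the 13 mitotic kinesins stayed between −0.26 and 0.29, so a change as large as that of KIF4A with the siRNA lay outside each of them. None of the 20 spindle partners and none of the 20 cargo partners passed with the plasmid either.

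The 2 members with the smallest p were KIF18B and KIF9. KIF18B read 8.48, 8.44 and 8.35 with the empty vector and 8.60, 8.51 and 8.61 with the ERβ2 plasmid, a difference of 0.15 (unadjusted p = 0.0361, adjusted p = 0.675 from limma). The arrays of this gene did not overlap, as was true for 5.35% of all genes in the higher direction. KIF9, a dim axonemal member, read 4.13, 4.10 and 3.85 against 3.85, 3.76 and 3.87, a difference of −0.20 (unadjusted p = 0.0416, adjusted p = 0.688 from limma), with overlap. KIF18A came next, at 8.52, 8.44 and 8.37 against 8.36, 8.31 and 8.32, a difference of −0.11 (adjusted p = 0.761 from limma). KIF18A, KIF20B and KIF14 had every plasmid array below every empty vector array, where the background was 6.67% of all genes. KIF3B read 8.43, 8.72 and 8.48 with the empty vector and 8.52, 8.39 and 8.45 with the plasmid, with overlap and a difference of −0.09 (95% confidence interval −0.28 to 0.10).

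The effect of the siRNA and that of the plasmid were then compared in 1 fit over the 12 arrays. In 12 kinesins the siRNA effect lay below the plasmid effect (adjusted p of at most 0.1), where the background was 11.3% of all genes, and in KIF3A it was higher, as in 15% of all genes (0.50, adjusted p = 0.0176 from limma). The 12 were KIF3B, KIF24 and 10 mitotic kinesins, namely those other than KIF11, KIF2A and KIF2B. A difference of 1.5-fold as well was met by 4 members, all lower, against 1.46% of all genes. It was −0.95 for KIF3B (limma: adjusted p = 0.000106, standard error 0.12), −0.75 for KIF18B (standard error 0.09, adjusted p = 6.65e-05), −0.64 for KIF4A (standard error 0.09, adjusted p = 0.000363) and −0.61 for KIF23 (standard error 0.07, adjusted p = 9.4e-05). In each of the 4 the plasmid effect did not pass by itself.

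**Figure D4:**
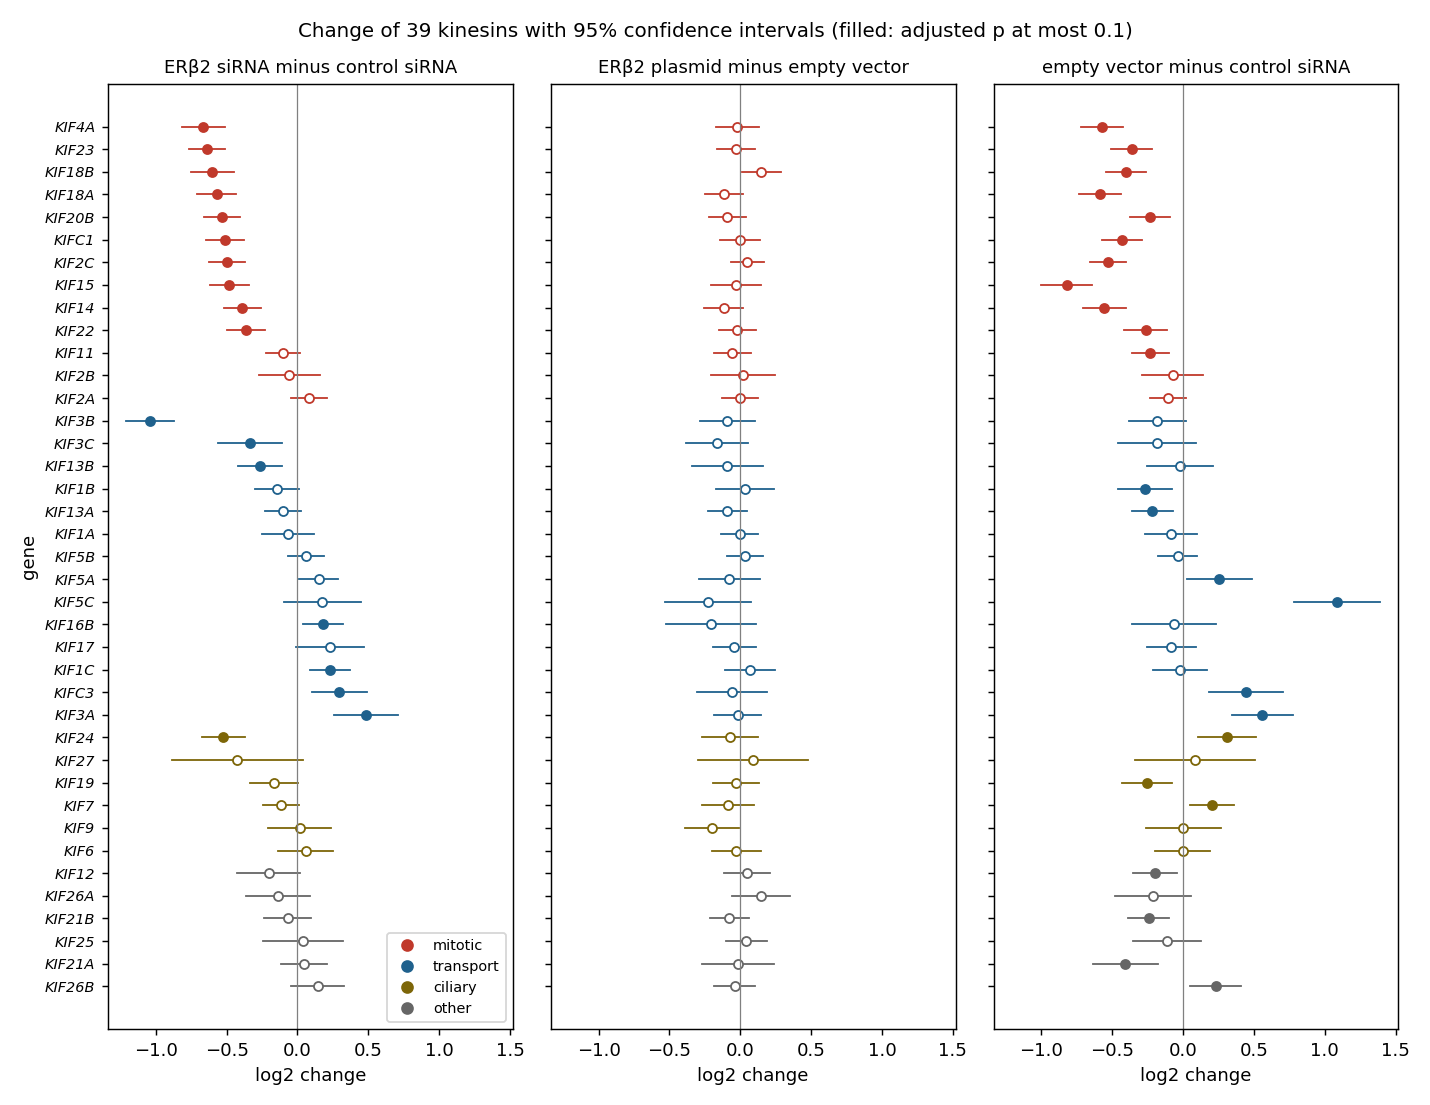
Log2 change of the 39 kinesins (x axis) in 3 comparisons, with 95% confidence intervals from limma as bars and genes on the y axis; filled points have an adjusted p of at most 0.1. Mitotic members (red) sit left of 0 with ERβ2 siRNA, except KIF2A, and in empty vector against control siRNA, and no point is filled in the middle panel.

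The mitotic kinesins were also lower in the empty vector arrays than in the control siRNA arrays, neither of which had ERβ2 altered. These groups differ in time after transfection (24 h and 48 h), in plasmid against siRNA, in transfection reagent and in cell confluency at transfection. These cannot be told apart. The comparison shares its control siRNA arrays with the siRNA effect and its empty vector arrays with the plasmid effect, so its values are set beside those and are no separate evidence for them. Of 13 mitotic kinesins, 11 were lower and 0 were higher with the empty vector, where 22.4% of all genes were lower and 19.2% higher, and KIF2A and KIF2B did not pass. Their median was −0.40, against −0.06 over all genes.

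KIF15 had the smallest p here. It read 9.13, 9.02 and 8.99 with control siRNA and 8.20, 8.36 and 8.12 with the empty vector, a change of −0.82 (limma: adjusted p = 0.000112, standard error 0.08), beside −0.48 with ERβ2 siRNA, which read 8.58, 8.53 and 8.59. KIF2C read 9.54, 9.53 and 9.55 with control siRNA and 8.98, 9.03 and 9.02 with the empty vector, a change of −0.53, beside −0.50 with ERβ2 siRNA (9.04, 8.99 and 9.10). KIF18A changed by −0.59, beside −0.57. For KIF2C and KIF18A, the ERβ2 siRNA arrays overlapped the empty vector arrays. KIF23 read 9.59, 9.73 and 9.63 with the empty vector, a change of −0.36 beside −0.64, and KIF4A read 9.21, 9.35 and 9.28, a change of −0.57 beside −0.66. KIF11, which did not pass with ERβ2 siRNA, was lower here at −0.23 (adjusted p = 0.0162 from limma).

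Array by array, the median of the mitotic kinesins relative to control siRNA was −0.48, −0.52 and −0.46 with ERβ2 siRNA, −0.42, −0.38 and −0.47 with the empty vector and −0.40, −0.38 and −0.39 with the ERβ2 plasmid. The control siRNA group was thus the high one, and the other 3 groups lay close together. The lowest mean of the 4 groups was in the ERβ2 siRNA arrays for 6 mitotic kinesins, in the plasmid arrays for 5 and in the empty vector arrays for 2. Of the spindle partners, 19 of 20 were lower with the empty vector than with control siRNA, against 22.4% of all genes.

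KIF3B did not share this pattern. Against control siRNA it had a change of −0.18 with the empty vector (adjusted p = 0.143 from limma), beside −1.04 with ERβ2 siRNA. Without empty vector replicate 2, the array with the lowest agreement with its group, the value was −0.27 and passed (adjusted p = 0.024). KIF3A was higher with the empty vector, at 7.19, 7.28 and 7.08 (change 0.56, adjusted p = 0.00231), close to its level with ERβ2 siRNA. KIF24, lower with ERβ2 siRNA, read 7.54, 7.81 and 7.53 with the empty vector, above each control siRNA array (change 0.31, adjusted p = 0.0305; 0.104 without control siRNA replicate 2).

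KIF5C, a kinesin-1 heavy chain best known from neurons and named here after its values were seen, had the largest rise between these control groups. It read 5.46, 5.26 and 5.57 with control siRNA, 5.86, 5.51 and 5.45 with ERβ2 siRNA, 6.30, 6.81 and 6.44 with the empty vector and 6.43, 6.14 and 6.30 with the ERβ2 plasmid. The plasmid groups lay above both siRNA groups without overlap, and the change between the control groups was 1.09 (limma: adjusted p = 0.000436, standard error 0.13), or 2.12-fold. KIF5C, KIF15 and KIF18A were past 1.5-fold here, 3 members in all, where the background was 6.87% of all genes, and without control siRNA replicate 3 or without empty vector replicate 2 there were 5. Of the other transport kinesins, KIFC3 (0.44) and KIF5A (0.26) were also higher, and KIF1B (−0.27) and KIF13A (−0.22) were lower. Of all 14 transport kinesins, 2 were lower and 4 were higher, where 22.4% of all genes were lower and 19.2% higher. The count of transport kinesins lower ran from 0 without empty vector replicate 1 to 5 without empty vector replicate 2. It was 1 without control siRNA replicate 1 or empty vector replicate 3. KIF5A lost its call without control siRNA replicate 1 or 3 or empty vector replicate 2 or 3 (adjusted p of 0.103 to 0.198), KIF1B without control siRNA replicate 1 or empty vector replicate 1 (0.109 and 0.123) and KIF13A without empty vector replicate 1 or 3 (0.103 and 0.109).

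Between the control groups, 3 of 6 ciliary kinesins and 4 of the 6 without a fixed role passed, where 22.4% of all genes were lower and 19.2% higher. KIF7 (0.21) was higher beside KIF24, and KIF19 (−0.25), a depolymerase of motile cilia, was lower, while KIF6, KIF9 and KIF27 did not pass. KIF19 had a mean of only 5.02, and its second cluster, at −0.32, did not pass (adjusted p = 0.138 from limma). KIF7 lost its call when any control siRNA array or empty vector replicate 3 was left out (adjusted p of 0.103 to 0.16). KIF21A, which slows microtubule growth at the cell cortex, was lower (−0.41), as were KIF21B (−0.24) and KIF12 (−0.20), and KIF26B was higher (0.23). KIF12 and KIF26B were dim, with means of 4.93 and 4.76 (limma: adjusted p = 0.0551 and 0.0529). Over all 39 kinesins, 17 were lower, 7 were higher and 15 did not pass, and 11 of the 17 lower ones were mitotic. Of the 20 cargo partners, 2 were lower, 3 were higher and 15 did not pass, with a median change of −0.01. The same 22.4% and 19.2% of all genes are their background. Among those that passed, SPAG9, a scaffold that binds kinesin-1, was higher by 0.96 and TRAK1, an adaptor of mitochondria, was lower (−0.55).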

How the data were processed

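The authors deposited 1 table of log2 values, which per the labels come from RMA as run by the Affymetrix Expression Console: background correction, normalization between arrays and 1 summary value per transcript cluster. The log base is not stated and was taken as 2, as RMA gives. Software version and genome build are not given in the sources used here. Of 33297 clusters, 19181 had 1 gene symbol in the platform annotation. Of several clusters of a gene, the brightest on average over the 12 arrays stood for it, which left 17958 genes, with none removed for low values. All 39 kinesin symbols were found in RefSeq (GRCh38.p14).

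limma 3.58.1 in R 4.3.3 (lmFit, eBayes) compared 3 arrays with 3, without a replicate block, with Benjamini-Hochberg adjustment over all genes and a threshold of 0.1; a 1.5-fold mark is given apart. The difference of effects used all 12 arrays. The procedure was tested on simulated data. The number of arrays limits the precision. The members, the role lists, the named genes and the motifs were chosen with earlier results of these data known. Named with array values were up to 6 mitotic, 4 transport and 4 other kinesins with the largest passing change with the siRNA, the 3 smallest p of each other comparison, members whose effects differed and up to 4 partners per list. CENPE, KIF11, KIFAP3 and KIF5C were given with array values besides these. Alternatives were other cluster choices, a brightness filter, other normalizations, other fits, the methods' t-test and leaving out each array. The other assays and cell lines of the study were not analysed here.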

Additional observations from a re-analysis of the deposited data

Results flagged for a closer look

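In 4 kinesins the siRNA effect and the plasmid effect differed by at least 1.5-fold in the test over 12 arrays. The siRNA effect minus the plasmid effect, on the log2 scale, was −0.64 for KIF4A, −0.61 for KIF23, −0.75 for KIF18B and −0.95 for KIF3B. When each of the 12 arrays was left out in turn, the value ran from −0.69 to −0.60 for KIF4A, from −0.65 to −0.58 for KIF23, from −0.81 to −0.71 for KIF18B and from −1.04 to −0.89 for KIF3B, and each adjusted p from limma stayed at or under 0.00148. The siRNA groups were sampled at 48 h and the plasmid groups at 24 h. Transfection reagent and cell confluency differed as well, so the effects of agent, time, reagent and confluency cannot be told apart.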

How the results depend on the processing

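The counts that answer the comparisons kept within 1.5 times their value under each alternative run. With 1 array left out, 17 to 20 kinesins passed with ERβ2 siRNA, 0 with the plasmid, 3 to 5 had different effects and 20 to 25 passed between the control groups, while the mitotic kinesins lower numbered 10 and 11 throughout. Not every same-numbered pair of arrays deviated together (correlations of 0.223, 0.143 and 0.014 in the siRNA groups and −0.137, −0.09 and 0.104 in the plasmid groups), which falls short of showing that the numbers pair the samples. With the replicate number as a block, 19 kinesins passed with ERβ2 siRNA, 0 with the plasmid and 23 between the control groups, and 4 had different effects. Centring each array on its median left 2 kinesins past 1.5-fold with ERβ2 siRNA in place of 4, and moved the split of lower and higher kinesins to 14 and 6, from 14 and 4. KIF3C and KIFC3 lost their calls under the methods' t-test after Benjamini-Hochberg adjustment (0.157 and 0.125), and KIF11 passed (0.0636). By q-values of that t-test 24 kinesins passed with ERβ2 siRNA and 26 between the control groups. No change that passed the test turned its direction under the alternatives run. Some values near 0 did change sign: without empty vector replicate 2 the plasmid effect was 0.015 for the mitotic median, 0.008 for the transport median and 0.03 for KIF3A, each below 0 with all arrays, and the median of all genes with ERβ2 siRNA, −0.03, was 0.02 under the brightness filter and under median centring. The t-test was not run for the difference of effects.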
